A study of Homo sapiens with 414 samples.

Results

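The subject is a list of 34 genes of the chemical synapse, out of 19084 gene symbols measured, followed in cultures made from neural progenitor cells of the human embryonic stem cell line H1 (H1-NPC). The genes were taken by name, with no threshold on any value, but with earlier results of these data known. Their counts beside the shares of all genes therefore describe the list and do not test it. All 34 of 34 were present and passed the filter on low values. By role, 10 encode proteins of the synaptic vesicle or its Rab3 GTPases, 4 are synaptotagmins, 6 belong to the membrane fusion machinery, 1 takes part in vesicle retrieval, 5 build the active zone, 4 are adhesion molecules and 4 are postsynaptic scaffolds. The list is therefore wider than vesicles and the active zone, since DLG4, HOMER1, SHANK1, SHANK2, NLGN1 and NLGN3 act on the postsynaptic side.

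The series is a neurotoxicity screen, in which progenitors expanded with the growth factor FGF2 were reseeded without it in plate wells and given a compound from day 0. RNA of whole wells was sequenced after 1, 2, 3, 4, 6, 8, 10, 15, 21, 27 or 39 days, giving 414 libraries. There were 266 libraries of 29 compounds that the labels class as toxic, and the others were of 16 compounds classed as non-toxic, with at most 1 library of a compound on a day. The toxic compounds described here were Arsenic at 5 µM, Okadaic acid at 3 nM, Vincristine at 1 nM, Cadmium at 50 µM, Hydroxyurea at 250 µM, K252a at 30 nM, Bis-I at 4 µM, Lead acetate at 30 µM, (trans) Retinoic acid at 1.7 µM, Accutane or Isotretinoin at 0.5 µg/ml, Busulfan at 50 µg/ml, PD166866 at 2.5 µM, U0126 at 10 µM, 5-Fluorouracil at 10 µM and Cytosine Beta-D-arabinofuranoside (AraC) at 5 µM. The toxic compounds that enter through the class comparison and counts were Propylthiouracil at 25 µg/ml, 2-Imidazolidinethione at 0.4 mM, Amiodarone at 1 µg/ml, Benzene at 50 µg/ml, Bioallethrin at 10 nM, Carbamazepine at 10 µg/ml, Dexamethasone at 100 µM, Diazinon at 10 µM, Dioxin at 3 nM, L-phenylalanine at 1 mM, Permethrin at 2.5 µM, Thalidomide at 100 ng/ml and Monosodium glutamate at 150 µM. Maneb, at 60 µM, had 1 library and entered no comparison. The non-toxic compounds were DMSO at 0.1%, Acetaminophen at 10 µg/ml, Amoxicillin at 5 µg/ml, Aspirin and Ibuprofen at 20 µg/ml, Naproxen sodium at 30 µg/ml, PVP at 100 µg/ml, Glucosamine at 0.4 µg/ml, and Ficoll 400, Fructose, Glycerol, Glyphosate, PEG 3350, Saccharin, Sorbitol and Sucrose at 10 µM. All wells came from 1 cell line and the labels do not say whether they came from separate thaws, so p-values measure only the spread between these wells.

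At a chemical synapse, transmitter is stored in vesicles that carry synapsins, synaptophysin, SV2 proteins and Rab3. Vesicles are docked and primed at the active zone by RIM, UNC13, bassoon and piccolo. When calcium enters, synaptotagmin triggers fusion by the SNARE proteins of the vesicle and plasma membranes, which complexins clamp and assist. Neurexins on the axon bind neuroligins on the dendrite, where DLG4 and the SHANK and HOMER scaffolds anchor receptors. Neurons differentiating from progenitors switch on many of these genes.

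Levels are in TPM, a transcript's length-scaled share of its library. Differences are on the log2(TPM + 1) scale, which understates the change of genes near 0, and a gene was called when its limma p-value, adjusted by the Benjamini-Hochberg method over 16318 tested genes, was below 0.05. A library had from 11377 to 17188 genes at 1 TPM or more, and the reads behind the values are unknown. In some libraries longer transcripts were lower relative to the non-toxic mean of that day. The slope of this deviation on log2 length was below -0.15 in 40 of 266 toxic and 1 of the non-toxic libraries. Where leaving such libraries out moved a count of the 34 genes beyond 1.5 times, the count without them is also given. Counts under such other settings were made for the 34 genes only, with no share of all genes. The 1 non-toxic library was Ibuprofen on day 8. There the median of the 34 genes was -1.777 on the log2(TPM + 1) scale, relative to the mean of that day's other 9 non-toxic libraries. In RNA of whole wells, fewer neurons and less RNA per neuron cannot be told apart.

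In the non-toxic cultures most of the 34 genes rose steeply over the first 10 days. Between day 10 and day 1, 32 of 34 were called higher and 0 lower, where 35.6% of all tested genes were called higher and 40.4% lower. The median difference of the 34 genes was 1.949, against -0.024 over all tested genes. By role, all 10 vesicle genes, all 4 synaptotagmins, SNAP91, all 4 adhesion genes and all 4 postsynaptic scaffolds rose, together with 5 of 6 fusion genes and 4 of 5 active zone genes. The vesicle genes had the highest median difference of these roles at 2.67, and the active zone genes the lowest at 1.45. VAMP1, a vesicle SNARE, and RIMS2, a RIM protein of the active zone, were not called, with differences of -0.09 and 0.15.

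SYNGR3, a synaptogyrin of the vesicle membrane, had a lowest, median and highest level of 42.8, 52.4 and 62.7 TPM in the 15 libraries of day 10, against 1.95, 3.14 and 4.07 TPM in the 16 libraries of day 1. RAB3A, the vesicle GTPase, had 301.6, 327.2 and 375.0 TPM on day 10, against 24.9, 26.9 and 32.2 TPM on day 1. SYT5, a synaptotagmin, had 150.6, 187.3 and 223.3 TPM on day 10, against 10.9, 13.9 and 16.8 TPM on day 1. None of these day 10 libraries overlapped with day 1. The differences were 3.68 ± 0.08 for SYNGR3, 3.55 ± 0.06 for RAB3A and 3.65 ± 0.07 for SYT5 on the log2(TPM + 1) scale (SE, limma, adjusted p of 2.1e-85, 6.9e-103 and 2.3e-94). NRXN3, a neurexin, averaged 37.1 ± 4.43 TPM on day 10 and 2.40 ± 0.293 TPM on day 1 (SD), a difference of 3.48 ± 0.07 (SE). SYN3 and SYN2, synapsins that tether vesicles, differed by 3.46 ± 0.14 and 3.20 ± 0.07 (SE).

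Across the list, the libraries of day 10 lay wholly above those of day 1 for 30 of 34 genes and overlapped for 4. Such overlap was counted for the 34 genes only, so no share of all genes stands beside it. A rise that was called against day 1 and held on every later day began on day 2 for 19 genes and on day 3 for 10. It began on day 4 for CPLX1 and HOMER1, on day 10 for SV2B, and on no day for VAMP1 and RIMS2. Over all tested genes 9.31% were called higher than on day 1 on day 2, 20.7% on day 3, 26.1% on day 4, 31.4% on day 6, 26.9% on day 8, 36.4% on day 15, 46.7% on day 21, 44.7% on day 27 and 44.3% on day 39. RIMS2 averaged 6.74 TPM on day 1, 10.1 TPM on day 6, 7.71 TPM on day 10, 11.9 TPM on day 27 and 6.81 TPM on day 39. VAMP1 averaged 9.11 TPM on day 1, 5.88 TPM on day 8, 16.7 TPM on day 21 and 10.6 TPM on day 39. These 2 genes thus moved up and down rather than in 1 direction.

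**Figure D1:**
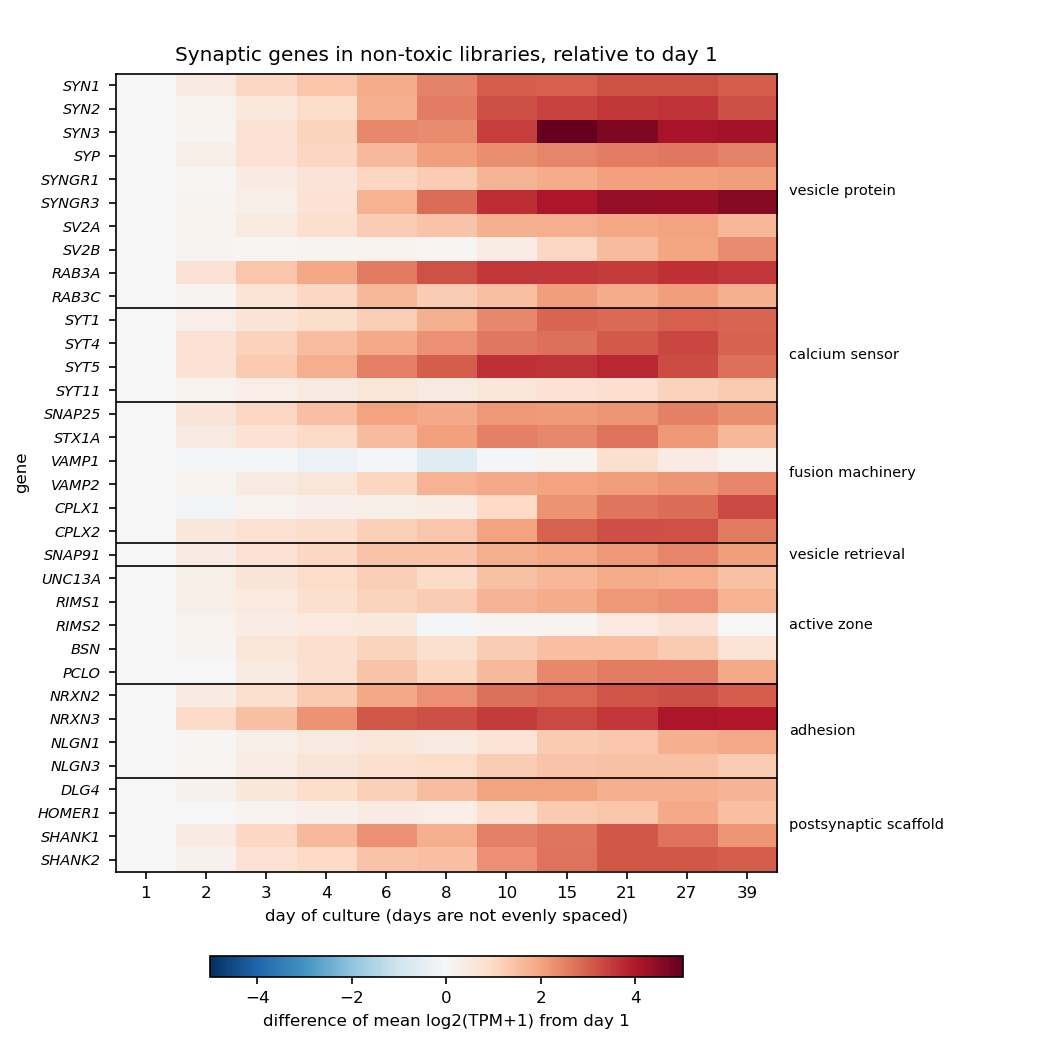
Mean log2(TPM + 1) of each of the 34 genes (rows, grouped by role) on 11 days (columns) in the non-toxic libraries, minus the mean of day 1. Red marks a higher level than on day 1 and blue a lower one. Most rows redden from day 2 or 3, CPLX1 and SV2B redden mostly after day 10, and VAMP1 and RIMS2 stay pale.

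The promoter sequences of 26 of the 34 genes were in the RefSeq table used, build GRCh38.p14, with 44 windows of 250 bases upstream of a start. SYN1 encodes synapsin I and is a textbook target of the repressor REST, which binds the RE1 element and silences neuronal genes in other cells. RAB3A is shown beside it because it was among the 3 steepest risers between day 10 and day 1 on the log2(TPM + 1) scale. Capitals mark letters that match a core of RE1, which is CAGCACC and GGACAG spaced by 2 bases of any kind, or TGACGTCA, the cAMP response element, each searched on both strands, and the motifs do not overlap.
SYN1, chrX:47619858-47620107, minus strand: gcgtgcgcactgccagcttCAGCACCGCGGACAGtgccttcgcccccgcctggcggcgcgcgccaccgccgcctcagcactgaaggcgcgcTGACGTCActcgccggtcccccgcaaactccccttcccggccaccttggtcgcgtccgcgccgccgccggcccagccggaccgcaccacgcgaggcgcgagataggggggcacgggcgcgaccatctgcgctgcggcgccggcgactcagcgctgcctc
RAB3A, chr19:18204043-18204292, minus strand: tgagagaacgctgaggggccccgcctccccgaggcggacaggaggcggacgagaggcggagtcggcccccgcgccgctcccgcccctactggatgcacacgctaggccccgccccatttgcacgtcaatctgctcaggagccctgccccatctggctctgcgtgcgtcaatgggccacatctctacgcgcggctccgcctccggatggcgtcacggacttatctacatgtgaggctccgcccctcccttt
The RE1 letters were found in 16 of 35116 promoter windows (0.0456%) and in 1 of the 44 windows of these genes, that of SYN1. The cAMP response element was in 578 windows (1.65%) and in 2 of the 44, those of SYN1 and DLG4. In SYN1 the RE1 letters span bases -231 to -217 and the cAMP response element bases -159 to -152 from the start. A match is a description of these letters, and windows without one say nothing about the factor.

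From day 10 to day 39 the genes no longer moved as a block. On day 39 against day 10, 20 of 34 were called higher, 6 lower and 8 were not called, with a median difference of 0.272 against 0.050 over all genes. Of all tested genes, 43.6% were called higher and 34.9% lower, so the share of the 34 genes called lower was below the background and the share called higher above it. Day 39 lay wholly above day 10 for 12 genes, wholly below for 4, and overlapped for 18. This too was counted for the 34 genes only.

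CPLX1, complexin 1, had the largest late difference on the log2(TPM + 1) scale. It averaged 6.35 ± 0.769 TPM on day 10, 16.6 ± 2.77 TPM on day 15, 22.8 ± 2.53 TPM on day 21, 24.8 ± 3.35 TPM on day 27 and 35.2 ± 3.77 TPM on day 39 (SD, n = 15, 7, 11, 12 and 14 libraries). SV2B, a vesicle glycoprotein, averaged 0.751 ± 0.187 TPM on day 10, 1.79 ± 0.470 TPM on day 15, 3.04 ± 0.341 TPM on day 21, 4.33 ± 0.495 TPM on day 27 and 5.97 ± 0.408 TPM on day 39. By the ratio of day 39 to day 10 means SV2B came first, at 7.95, with CPLX1 at 5.55. Both had their highest mean on the last day, while SV2A of the same family was at 197.2 TPM on day 39 and 215.8 TPM on day 10. Differences between day 39 and day 10 were 2.30 ± 0.09 for CPLX1 and 2.00 ± 0.05 for SV2B (SE, limma, adjusted p of 1.4e-51 and 4e-76). NLGN1, a neuroligin, rose by 1.22, SYNGR3 by 0.86, SHANK2 by 0.74 and SYN3 by 0.73.

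The 6 genes that fell between day 39 and day 10 came from 5 roles. STX1A, the plasma membrane SNARE syntaxin 1A, had a lowest, median and highest level of 36.6, 43.3 and 50.4 TPM on day 39, against 60.4, 78.7 and 102.5 TPM on day 10. SYT5 had 86.1, 99.0 and 116.1 TPM on day 39, against 150.6, 187.3 and 223.3 TPM on day 10. Neither overlapped between the days, and the differences were -0.89 ± 0.06 for STX1A and -0.88 ± 0.07 for SYT5 (SE, limma, adjusted p of 1.3e-31 and 1.5e-24). BSN, bassoon, fell by 0.58, SHANK1 by 0.33, DLG4 by 0.28 and SV2A by 0.13. The day of the highest mean was day 10 for DLG4, day 15 for SYN3 at 83.5 TPM, day 21 for 10 genes, day 27 for 15 and day 39 for 7.

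**Figure D2:**
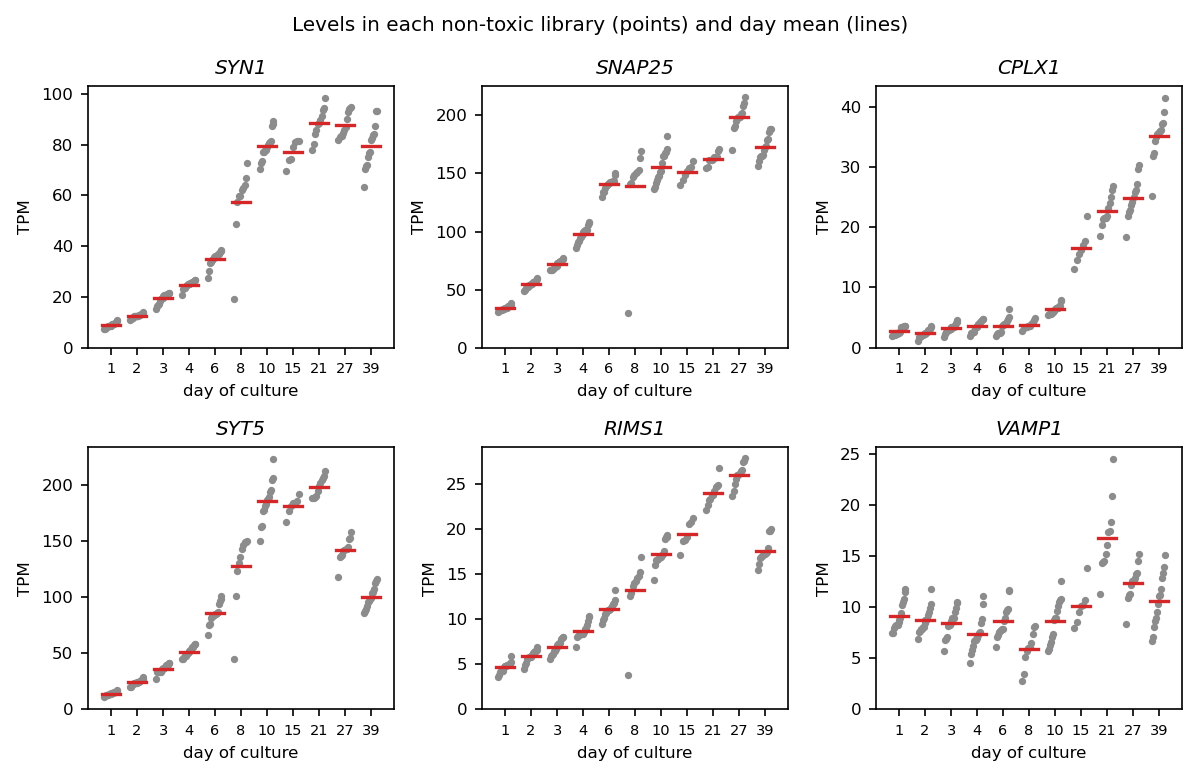
TPM of SYN1, SNAP25, CPLX1, SYT5, RIMS1 and VAMP1 in each non-toxic library (grey points, spread sideways in order of value) on 11 days, with day means (red lines). SYN1 and SNAP25 rise early and then level off, CPLX1 climbs between day 10 and day 39, and SYT5 is lower on day 39 than on day 10. The lone low point on day 8 in 4 of the panels is the Ibuprofen library.

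Most further genes of the synapse also rose early, in lists that were likewise chosen with earlier results of these data known. Of 77 further genes of the SNARE, synaptotagmin, vesicle, endocytosis, active zone, adhesion and postsynaptic groups, 62 were called higher and 5 lower on day 10 against day 1, and 44 higher and 15 lower on day 39 against day 10. Of 12 general neuronal markers, 10 were called higher and 2 lower on day 10 against day 1, and 4 higher and 8 lower on day 39 against day 10. Their summed level had a median of 3529 TPM on day 1, 10330 TPM on day 10 and 7149 TPM on day 39. Many markers of other cells were higher on day 39 than on day 10. All 9 astrocyte markers, summed medians of 296.3 TPM on day 1, 363.2 TPM on day 10 and 4980 TPM on day 39, and all 7 mesenchymal markers, medians of 2461, 705.9 and 6931 TPM on the same days, were called higher on day 39 against day 10. Neural progenitor markers summed to medians of 5745 TPM on day 1, 3562 TPM on day 10 and 5913 TPM on day 39, with 5 of 8 called higher and 3 lower on day 39 against day 10. Oligodendrocyte markers summed to 65.81, 39.6 and 91.36 TPM on those days, with 5 of 6 called higher and 0 lower. All 8 markers of dividing cells fell, with summed medians of 1923, 363.6 and 212.3 TPM on those days. None of the neuronal, astrocyte, mesenchymal or dividing-cell markers was at 0 throughout a day, and the part of all these lists in the late changes was not tested.

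Compared as classes, toxic and non-toxic compounds differed at few of the 34 genes. With 1 value per compound, 0 of 34 were called on days 1 to 6 (28 toxic and 16 non-toxic compounds), where 0.0981% of all genes were called higher and 0.484% lower. On days 8 to 39 (21 toxic and 12 non-toxic compounds) 0 were called higher and 9 lower, where 5.09% of all genes were called higher and 12.5% lower. The 9 were SYN3, RAB3C, SYT1, BSN, PCLO, NRXN3, HOMER1, SHANK1 and SHANK2. SYN3 averaged 27.3 ± 7.12 TPM in toxic and 45.9 ± 5.14 TPM in non-toxic compounds (SD over compounds), a difference of -0.77 ± 0.14 (SE, limma, adjusted p = 0.00049). SHANK2, a scaffold that links receptor complexes to actin, averaged 27.0 ± 4.45 TPM in toxic and 36.1 ± 2.26 TPM in non-toxic compounds, a difference of -0.39 ± 0.08 (SE, limma, adjusted p = 0.0013). The late count was 3 without the libraries of a length slope below -0.15, and 0 with the mean slope of each compound as a covariate, so it moves with that slope.

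The class comparison hides compounds that moved in opposite directions. Of 28 toxic compounds with at least 3 libraries, 17 had more of the 34 genes called lower than higher, 6 more higher than lower, and 4 had 0 called. Of the 16 non-toxic compounds, each set against the others, 15 had 0 called, and only Ibuprofen had 1 higher and 22 lower. For Ibuprofen 2.38% of all genes were called higher and 29.2% lower, and its counts were 0 and 0 without its day 8 library. Pooled over compounds, all tested genes were called higher in 14.1% and lower in 17.9% of the tests of the 28 toxic compounds, and in 0.157% and 1.85% of those of the 16 non-toxic ones. NRXN3 was called lower in 17 toxic compounds and higher in 0, RAB3C, a Rab3 GTPase, lower in 16 and higher in 0, and NLGN3 lower in 10 and higher in 0. SYN3 was lower in 14 and higher in 1, and SHANK1 lower in 13 and higher in 2. SV2B went the other way, higher in 11 and lower in 2. These comparisons share the non-toxic libraries, so the counts are not independent of each other.

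**Figure D3:**
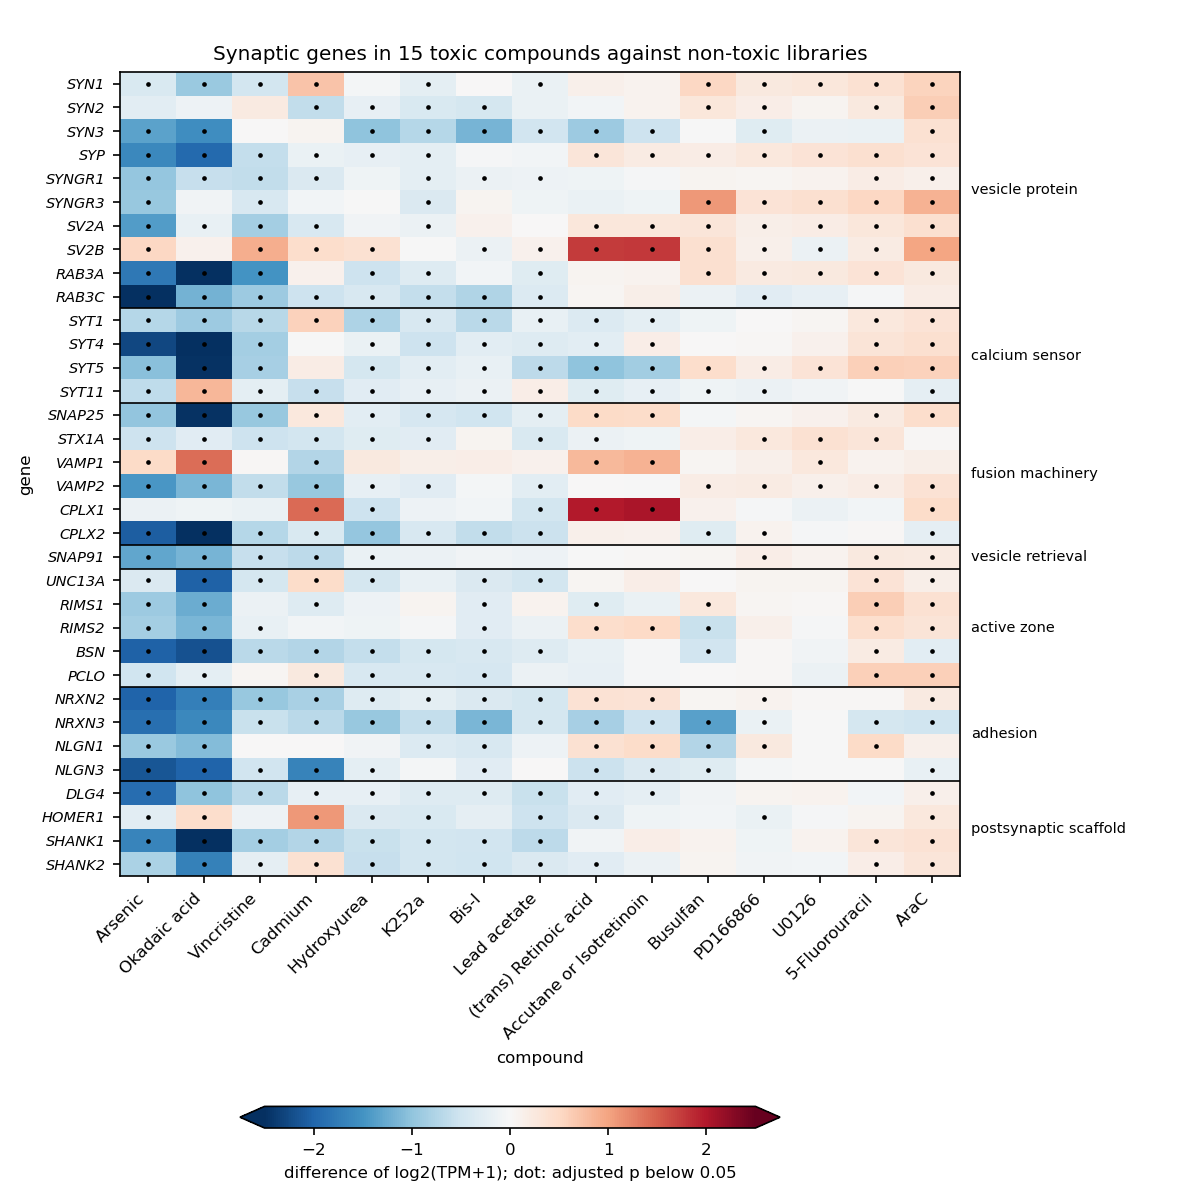
Difference in log2(TPM + 1) between each of 15 toxic compounds (columns) and the non-toxic libraries of its days for the 34 genes (rows, grouped by role), with dots where the adjusted p was below 0.05. The colour scale ends at 2.5, and larger differences take the end colour. Arsenic and Okadaic acid form the darkest blue columns, 5-Fluorouracil and AraC are mostly red, and the retinoids show strong red at SV2B and CPLX1.

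In Arsenic cultures, a toxic metalloid in a form the labels do not give, 30 of 34 genes were called lower and 2 higher, where 46.7% of all genes were called lower and 34.8% higher. The median difference was -0.981, against -0.109 over all genes and -0.364 over genes of at least 10 TPM. RAB3C was at 3.93, 6.92, 4.87, 3.25 and 2.63 TPM on days 1, 2, 3, 4 and 6 in Arsenic, against means of 16.8, 18.4, 27.6, 35.3 and 55.1 TPM in the non-toxic libraries of those days. Every Arsenic value was below the lowest non-toxic value of its day, and the level did not climb as it did in the non-toxic libraries. The difference was -2.48 ± 0.14 (SE, limma, adjusted p = 1.4e-29).
SYT4, another synaptotagmin, was at 12.7, 6.93, 3.60, 2.04 and 2.14 TPM in Arsenic, against 11.6, 19.6, 27.1, 35.4 and 46.4 TPM in the non-toxic libraries, and so within the non-toxic range on day 1 and below it after (-2.27 ± 0.18, SE). NLGN3, a neuroligin, was at 8.39, 12.2, 15.6, 14.4 and 6.68 TPM in Arsenic, against 39.6, 42.7, 51.4, 62.0 and 68.9 TPM, below the range on all 5 days (-2.14 ± 0.07, SE). CPLX2, complexin 2, was also below the range on all 5 days (-2.05 ± 0.12, SE). SV2B (0.52) and VAMP1 (0.47) were the 2 called higher, SV2B with 2.49 TPM in Arsenic on day 1 against a mean of 0.363 TPM. By library, the median of the 34 genes against the same-day mean was -0.263, -0.552, -0.887, -1.348 and -2.452 on the 5 days in turn.
The 12 neuronal markers summed to 1213 to 2376 TPM in Arsenic and 3400 to 8853 TPM in the non-toxic libraries, 9 of 12 being called lower, and the 7 mesenchymal markers to 3380 to 20400 TPM in Arsenic and 573.2 to 2692 TPM in the non-toxic libraries, with none of either list at 0. Their part in the result was not tested. With the length slope as a covariate 15 genes were lower and 8 higher, and SYT4 was not called (-0.42, adjusted p = 0.13).

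Okadaic acid inhibits serine/threonine protein phosphatases. With it, 27 of 34 genes were called lower and 3 higher, where 39.8% of all genes were called lower and 35.1% higher, and the median was -1.15 against -0.035 over all genes and -0.111 over genes of at least 10 TPM. CPLX2 was at 27.6, 44.8, 3.47, 0.62 and 0.0 TPM on days 1, 2, 3, 4 and 6 in Okadaic acid, against 37.2, 56.0, 62.97, 69.3 and 85.9 TPM in the non-toxic libraries. It was below the non-toxic range on every day and under 1 TPM on days 4 and 6. The difference was -3.29 ± 0.30 (SE, limma, adjusted p = 3.8e-17), and -0.56 (adjusted p = 0.090) with the length slope as a covariate.
RAB3A was at 12.6, 14.2, 8.91, 14.4 and 6.43 TPM in Okadaic acid, against 27.4, 45.7, 73.4, 106.4 and 172.8 TPM (-2.58 ± 0.15, SE). SHANK1 was at 1.94, 1.23, 0.40, 0.17 and 0.27 TPM in Okadaic acid, against 4.91, 6.86, 10.96, 17.01 and 27.8 TPM (-2.87 ± 0.16, SE). SYT4 differed by -2.81 ± 0.18 (SE). None of these 3 genes overlapped with the non-toxic range on any day.
The 3 that rose did so on all 5 days. VAMP1 was at 16.8, 17.95, 25.3, 33.5 and 28.5 TPM in Okadaic acid, against 9.11, 8.69, 8.44, 7.31 and 8.58 TPM in the non-toxic libraries, a difference of 1.40 ± 0.12 (SE, limma, adjusted p = 7.3e-19). SYT11, a synaptotagmin already high in progenitors, was at 313.1, 355.6, 409.0, 385.1 and 317.9 TPM in Okadaic acid, against 158.4, 180.7, 200.2, 218.4 and 243.9 TPM (0.84 ± 0.04, SE). HOMER1 rose by 0.45. Neuronal markers summed to 3536 to 5588 TPM in Okadaic acid and 3400 to 8853 TPM in the non-toxic libraries, with 9 of 12 called lower and 3 higher. Markers of dividing cells summed to 216.2 to 1952 TPM in Okadaic acid and 781.6 to 1975 TPM in the non-toxic libraries (8 of 8 lower), neural progenitor markers to 5009 to 8503 TPM and 3585 to 5894 TPM (2 of 8 higher, 6 lower), and mesenchymal markers to 1703 to 3150 TPM and 573.2 to 2692 TPM (2 of 7 higher, 3 lower). Astrocyte markers summed to 265.8 to 743.6 TPM in Okadaic acid and 237.6 to 311.8 TPM in the non-toxic libraries (5 of 9 higher, 2 lower), and oligodendrocyte markers to 11.3 to 46.74 TPM and 56.23 to 92.7 TPM (1 of 6 higher, 4 lower). How much of the result goes with these markers was not tested.

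Vincristine, a vinca alkaloid that blocks microtubule assembly, had 25 of 34 genes called lower and 1 higher, where 37.9% of all genes were called lower and 33.1% higher (median -0.536, against -0.032 over all genes and -0.229 over genes of at least 10 TPM). RAB3A was at 16.3, 32.3, 44.1, 11.6 and 31.2 TPM on days 1, 2, 3, 4 and 6 in Vincristine, against 27.4, 45.7, 73.4, 106.4 and 172.8 TPM in the non-toxic libraries. All 5 values were below the non-toxic range (-1.49 ± 0.13, SE, limma, adjusted p = 3.1e-15). NRXN2, a neurexin, was also below the range on 5 of 5 days (-0.95 ± 0.08, SE). SNAP25, a plasma membrane SNARE, was at 29.8, 54.6, 59.9, 16.9 and 38.1 TPM in Vincristine, against 34.1, 54.6, 71.6, 97.9 and 140.9 TPM, within the range on day 2 and below it on the other days (-0.95 ± 0.12, SE). RAB3C differed by -0.91.
SV2B was called higher on the strength of 1 library. It was at 0.31, 0.59, 0.43, 20.9 and 1.32 TPM in Vincristine, against 0.363, 0.495, 0.449, 0.506 and 0.533 TPM, and without the day 4 library its difference was 0.16 (limma, adjusted p = 0.11). That library had 17188 genes at 1 TPM or more, the most of all 414, where the other 4 had 13364 to 13595. The day 4 values of RAB3A and SNAP25, their lowest in Vincristine, came from this library too. Neuronal markers summed to 857.4 to 4431 TPM in Vincristine and 3400 to 8853 TPM in the non-toxic libraries, with 12 of 12 called lower and none at 0. Neural progenitor markers summed to 726.1 to 9066 TPM in Vincristine and 3585 to 5894 TPM in the non-toxic libraries. Markers of dividing cells summed to 191.8 to 2072 TPM in Vincristine and 781.6 to 1975 TPM in the non-toxic libraries. The part of these markers in the result was not tested.

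In Cadmium, a toxic heavy metal, the median difference on this scale was -0.404 over all tested genes and -0.673 over genes of at least 10 TPM. TPM are shares of a library, so these medians do not show that RNA fell as a whole. As deposited, 18 of 34 genes were called lower and 9 higher, where 59.4% of all genes were called lower and 24.6% higher. These counts are near the background and are no result about the list. With each library centred on its median 2 were lower and 24 higher, so most directions depend on the scaling. The share of all genes called after centring was not counted. The 5 Cadmium libraries all had length slopes below -0.15. Under centring 9 genes stayed called higher (SYN1, SV2B, SYT1, SNAP25, CPLX1, UNC13A, PCLO, HOMER1 and SHANK2), 2 stayed called lower (NLGN3 and VAMP2), and 8 were called lower as deposited and higher after centring.
CPLX1 was at 7.0, 5.91, 10.2, 11.9 and 16.02 TPM on days 1, 2, 3, 4 and 6 in Cadmium, against 2.73, 2.44, 3.22, 3.51 and 3.61 TPM in the non-toxic libraries. HOMER1, a scaffold with an activity-induced short form, was at 41.2, 35.1, 27.6, 18.3 and 33.8 TPM in Cadmium, against 12.02, 12.4, 13.6, 14.5 and 16.2 TPM. Both were above the non-toxic range on all 5 days. The differences were 1.41 ± 0.14 for CPLX1 and 1.09 ± 0.07 for HOMER1 (SE, limma, adjusted p of 3.5e-15 and 6e-25). SYN1 was at 16.2, 25.2, 33.2, 49.6 and 36.4 TPM in Cadmium, against 8.88, 12.4, 19.4, 24.8 and 35.02 TPM, above the range on days 1 to 4 and inside it on day 6. SYT1, the main calcium sensor of fast release, did the same (0.58 ± 0.05, SE).
NLGN3 was at 8.71, 12, 17.5, 25.3 and 18.8 TPM in Cadmium, against 39.6, 42.7, 51.4, 62.0 and 68.9 TPM, below the range on all 5 days (-1.68 ± 0.05 as deposited and -1.01 after centring). VAMP2, the main vesicle SNARE, was below it too (-0.96 ± 0.05, and -0.29 after centring). NRXN2 (-0.80) and SHANK1 (-0.74) were not called after centring. Day 6 stood apart from the other days, with a median over the 34 genes of -0.865 against values of -0.091 to 0.042 on days 1 to 4. Neuronal markers summed to 4100 to 7072 TPM in Cadmium and 3400 to 8853 TPM in the non-toxic libraries, with 6 of 12 called higher and 5 lower.

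**Figure D4:**
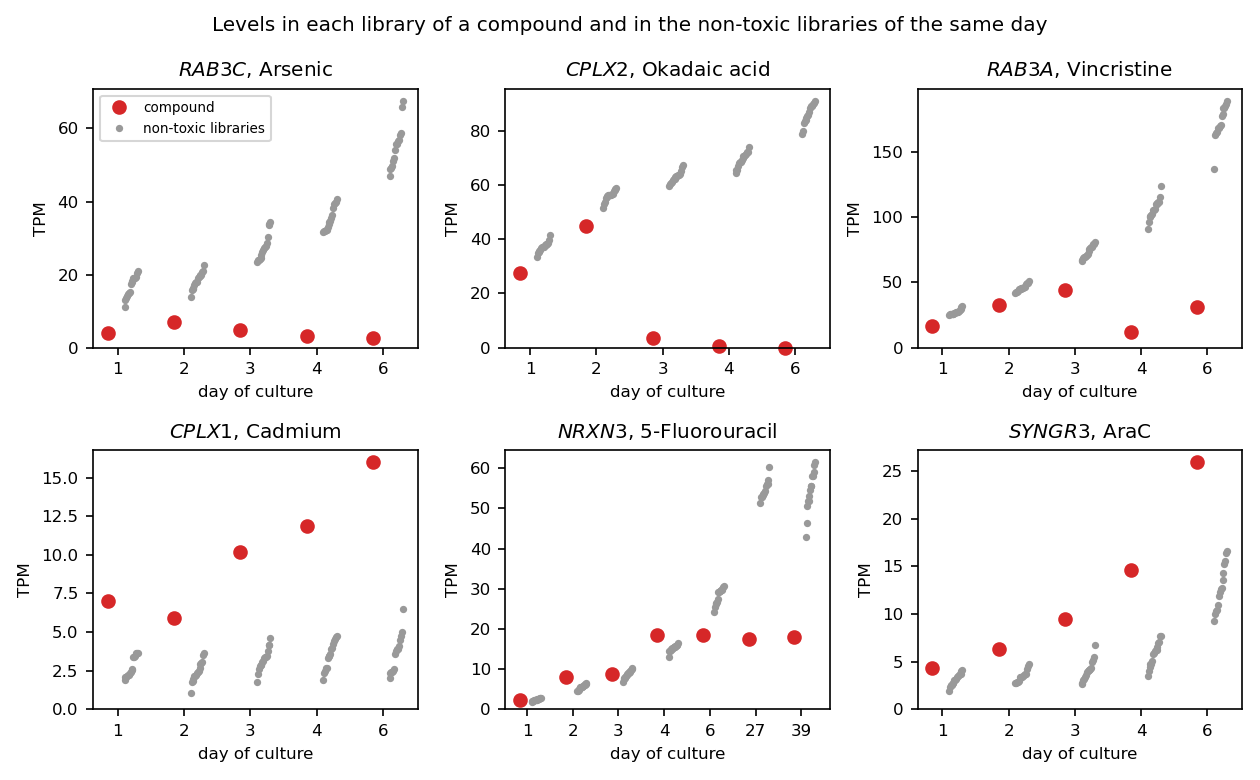
TPM of RAB3C in Arsenic, CPLX2 in Okadaic acid, RAB3A in Vincristine, CPLX1 in Cadmium, NRXN3 in 5-Fluorouracil and SYNGR3 in AraC (red points, 1 library a day) beside the non-toxic libraries of the same day (grey points). RAB3C stays low while the non-toxic level climbs, CPLX2 drops after day 2 and RAB3A drops on day 4, all 3 below the non-toxic points on every day, CPLX1 and SYNGR3 are above the non-toxic points on all days, and NRXN3 stops rising after day 4.

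Hydroxyurea, an inhibitor of ribonucleotide reductase, had 25 of 34 genes called lower and 1 higher over 11 libraries, where 23.2% of all genes were called lower and 28.9% higher (median -0.279, against 0.005 over all genes). CPLX2 had a lowest, median and highest level of 29.5, 63.6 and 133.8 TPM in Hydroxyurea, against day means of 37.2, 103.8 and 353.0 TPM in the non-toxic libraries. It was below the non-toxic range on 10 of 11 days, the exception being day 8, whose range includes the low Ibuprofen library. The difference was -0.96 ± 0.08 (SE, limma, adjusted p = 3e-23). SYN3 was at 12.5 and 7.64 TPM on days 15 and 21 in Hydroxyurea, against 83.5 and 67.2 TPM in the non-toxic libraries (-0.997 ± 0.16, SE). NRXN3 was below the range on 8 of 11 days (-0.96 ± 0.08) and SYT1 on 9 of 11 (-0.76 ± 0.08, both SE).
SV2B was the gene called higher. It was above the non-toxic range on 7 of 11 days, with 10.0 and 10.2 TPM on days 27 and 39 in Hydroxyurea, against 4.33 and 5.97 TPM (0.39 ± 0.06, SE). The day 39 library differed from that of day 10. The list's median was -0.851 on day 10 with 29 of 34 genes below all non-toxic libraries, and 0.401 on day 39 with 21 of 34 above them and 6 below, each from 1 library. Counts of this kind were not made over all genes. All 8 markers of dividing cells and all 7 mesenchymal markers were called higher in Hydroxyurea, and 7 of 12 neuronal markers lower. The markers' part was not tested.

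K252a, a kinase inhibitor that blocks neurotrophin receptors, had 26 of 34 genes called lower and 0 higher over 11 libraries, where 16.7% of all genes were called lower and 18.7% higher (median -0.301, against -0.002 over all genes). SYT4 had a lowest, median and highest level of 9.60, 43.2 and 67.8 TPM in K252a, against day means of 11.6, 62.4 and 128.0 TPM, and was below the non-toxic range on 8 of 11 days (-0.52 ± 0.05, SE, limma, adjusted p = 1.3e-15). SYN3 was at 32.4, 12.9, 28.8 and 20.0 TPM on days 15, 21, 27 and 39 in K252a, against 83.5, 67.2, 46.4 and 48.5 TPM (-0.71 ± 0.15, SE). RAB3C and NRXN3 both differed by -0.60, and each was below the range on 7 of 11 days.
The deficit was largest on days 10 to 27. On days 1 and 2 the list's median was 0.023 and 0.052. It was -0.254 and -0.258 on days 4 and 6, and about the same on days 8 and 39, at -0.241 and -0.275. On day 10 it was -0.443 and on day 21 it was -0.756, when 34 of 34 genes were below all 11 non-toxic libraries. That count was not made over all genes. A test of days 8 to 39 minus days 1 to 6 called 22 genes lower and 0 higher, where 9.25% of all genes were called lower and 12.6% higher. This test was not rerun without the day 21 library. The fit over all days was also run without libraries of a length slope below -0.15. These were K252a on day 21 (-0.246) and the Ibuprofen control of day 8. That fit had 28 genes lower and 1 higher. All 4 postsynaptic scaffolds and 4 of 4 synaptotagmins were among the 26. Of the neuronal markers 9 of 12 were called lower in K252a, and 7 of 7 mesenchymal markers higher. The part of these lists was not tested.

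Bis-I and Lead acetate, both over 11 libraries, also had most of the genes called lower. Bis-I had 23 of 34 called lower and 0 higher, where 32.3% of all genes were called lower and 10.2% higher. Lead acetate, a salt of a developmental neurotoxicant, had 21 lower and 2 higher, where 22.4% were called lower and 19.6% higher. NRXN3 had a lowest, median and highest level of 2.08, 10.5 and 28.9 TPM in Bis-I, against day means of 2.40, 32.0 and 54.8 TPM, and was under the non-toxic range on 9 of 11 days (-1.15 ± 0.08, SE). DLG4, the scaffold PSD-95, had 43.5, 109.1 and 154.2 TPM in Lead acetate, against 56.3, 171.1 and 227.2 TPM, under the range on 10 of 11 days (-0.56). SYT11 (0.17) and SV2B (0.11) were the 2 called higher in Lead acetate. In both compounds the list's median was negative on day 10, at -0.713 in Bis-I and -0.386 in Lead acetate, and positive on day 39, at 0.245 in Bis-I and 0.201 in Lead acetate. Bis-I had 12 genes lower and 5 higher with the length slope as a covariate.

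**Figure D5:**
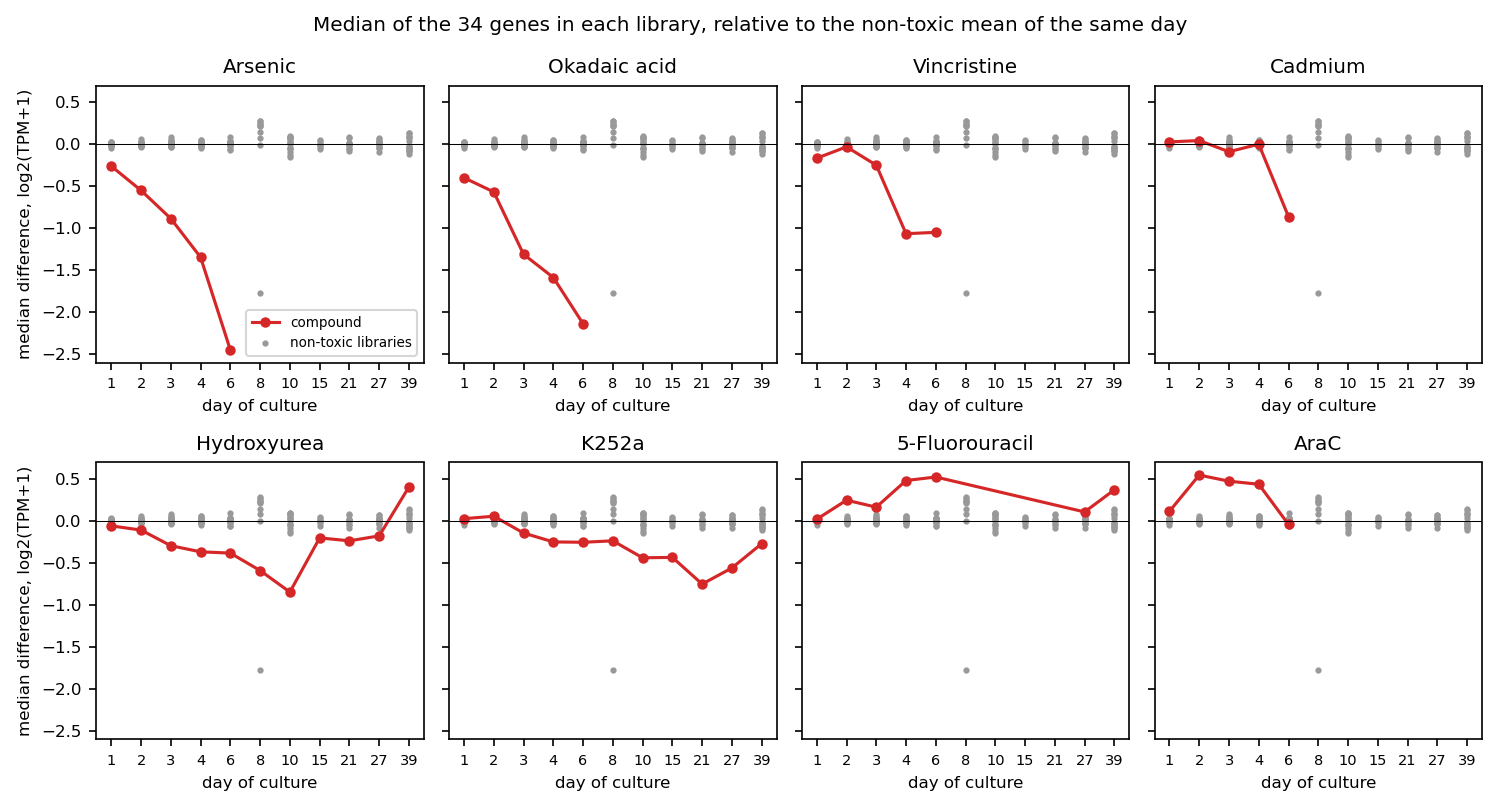
Median of the 34 genes in each library, as the difference in log2(TPM + 1) from the non-toxic mean of the same day. It is shown for 8 compounds (red, joined over days) and all non-toxic libraries (grey), each of which is left out of its own mean. Arsenic, Okadaic acid and Vincristine fall away from 0, K252a falls to -0.756 on day 21, Hydroxyurea turns positive on day 39, and 5-Fluorouracil and AraC are mostly above 0. The grey point near -1.8 on day 8 is the Ibuprofen library.

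AraC, a nucleoside analogue that stops DNA synthesis, had most of the list called higher. Over 5 libraries, 25 of 34 genes were called higher and 5 lower, where 40.9% of all genes were called higher and 27.2% lower (median 0.312, against 0.067 over all genes). SYNGR3 was at 4.29, 6.27, 9.47, 14.6 and 25.99 TPM on days 1, 2, 3, 4 and 6 in AraC, against 3.13, 3.47, 4.08, 5.79 and 12.8 TPM in the non-toxic libraries, above their range on every day (0.87 ± 0.12, SE, limma, adjusted p = 9.5e-10). SV2B was at 0.40, 1.83, 1.76, 2.61 and 4.34 TPM in AraC, against 0.363, 0.495, 0.449, 0.506 and 0.533 TPM, within the range on day 1 and above it after (0.99 ± 0.09, SE). SYN2 and PCLO, piccolo, rose by 0.61 and 0.60. By role, 9 of 10 vesicle genes and 4 of 4 postsynaptic scaffolds were among the risers.
NRXN3 was the exception most apart, at 2.11, 8.31, 8.16, 9.18 and 5.71 TPM in AraC against 2.40, 5.53, 8.71, 15.2 and 28.3 TPM, above the range on day 2 and below it on days 4 and 6 (-0.49 ± 0.12, SE). CPLX2 was likewise high on day 2, with 81.2 TPM in AraC against 56.0 TPM, and low on day 6, with 41.7 TPM against 85.9 TPM (-0.23). BSN (-0.27) and SYT11 (-0.22) were lower as well. Without the library of day 6, NRXN3 (-0.09) and CPLX2 (-0.04) were not called (limma, adjusted p of 0.37 and 0.59), nor were they with the length slope as a covariate, and without the library of day 4 CPLX2 was not called either (-0.17, adjusted p = 0.062). The list's median was 0.542 on day 2 and -0.046 on day 6. Neuronal markers were split, with 5 of 12 called higher and 3 lower in AraC, and mesenchymal markers summed to 3346 to 11160 TPM in AraC and 573.2 to 2692 TPM in the non-toxic libraries. Astrocyte markers summed to 363.2 to 1181 TPM in AraC and 237.6 to 311.8 TPM in the non-toxic libraries (7 of 9 higher, 1 lower), and oligodendrocyte markers to 17.43 to 47.73 TPM and 56.23 to 92.7 TPM (2 of 6 higher, 3 lower). The part of those shifts was not tested.

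5-Fluorouracil, an inhibitor of thymidylate synthase, had 23 of 34 genes called higher and 1 lower over 7 libraries, where 39.6% of all genes were called higher and 19.1% lower (median 0.232, against 0.079 over all genes). All 5 active zone genes rose. RIMS1, a RIM scaffold of the active zone, was at 5.27, 8.25, 10.3, 18.1, 24.3, 34.5 and 31.2 TPM on days 1, 2, 3, 4, 6, 27 and 39 in 5-Fluorouracil, against 4.63, 5.88, 6.93, 8.71, 11.1, 26.1 and 17.6 TPM in the non-toxic libraries. It was above the non-toxic range on all days but day 1 (0.62 ± 0.06, SE, limma, adjusted p = 3.5e-16). SYT5 reached 216.4 and 247.4 TPM on days 27 and 39 in 5-Fluorouracil, against 142.1 and 100.3 TPM (0.60 ± 0.07, SE). PCLO and SYNGR3 rose by 0.59 and 0.51.
NRXN3 was again the gene that went against the list. It was at 18.5, 18.4, 17.4 and 17.8 TPM on days 4, 6, 27 and 39 in 5-Fluorouracil, against 15.2, 28.3, 54.8 and 54.3 TPM, above the range on day 4 and below it on the other 3 of these days (-0.44 ± 0.09, SE, limma, adjusted p = 3.4e-05). Of 12 neuronal markers 8 were called higher and 3 lower in 5-Fluorouracil, and 8 of 8 markers of dividing cells lower, at 141.0 to 1918 TPM in sum against 180.2 to 1975 TPM in the non-toxic libraries. Their part was not tested.

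Busulfan, a DNA alkylating agent, had 10 of 34 genes called higher and 7 lower over 5 libraries. Of all genes 29.5% were called higher and 35.1% lower, so these counts are at and below the background and are no result about the list. SYNGR3 was at 4.07, 9.22, 12.7, 14.2 and 32.6 TPM on days 1, 2, 3, 4 and 6 in Busulfan, against 3.13, 3.47, 4.08, 5.79 and 12.8 TPM (1.09 ± 0.13, SE). NRXN3 was at 0.91, 3.73, 2.05, 4.61 and 4.85 TPM in Busulfan, against 2.40, 5.53, 8.71, 15.2 and 28.3 TPM (-1.36 ± 0.10, SE). SYNGR3 was above the non-toxic range on days 2 to 6 and NRXN3 below it on all 5 days. Without the day 3 library, whose length slope was -0.340, 16 genes were called higher and 6 lower. Mesenchymal markers summed to 3875 to 14190 TPM in Busulfan, above the 573.2 to 2692 TPM of the non-toxic libraries. Their part was not tested.

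PD166866, an inhibitor of FGF receptors, and U0126, an inhibitor of the kinase MEK, are given side by side. PD166866 had 14 genes called higher and 5 lower, where 8.98% of all genes were called higher and 15.1% lower, and U0126 had 9 higher and 1 lower, where 6.55% were called higher and 15.3% lower. Without the libraries of a length slope below -0.15, which in U0126 were those of days 1 and 15, U0126 had 17 higher and 0 lower, and 20 and 0 with the slope as a covariate. PD166866 had 1 lower in both settings. The share of all genes called was not counted in these settings. SYP, synaptophysin, had a lowest, median and highest level of 49.8, 172.4 and 310.6 TPM in U0126, against day means of 36.9, 139.0 and 232.6 TPM, and was above the non-toxic range on 10 of 10 days (0.34). In PD166866 it was above the range on 7 of 10 days (0.26). SYNGR3 rose by 0.35 in PD166866 and 0.41 in U0126. Astrocyte markers were called lower in both, 6 of 9 in PD166866 and 8 of 9 in U0126. Their part was not tested, and doses differ between the compounds, so they are not compared.

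(trans) Retinoic acid and Accutane or Isotretinoin are stereoisomers, the all-trans and 13-cis forms of retinoic acid, and share a molar mass, so their doses were nearly equal. Both raised CPLX1 and SV2B far above the non-toxic level. CPLX1 had a lowest, median and highest level of 12.5, 30.9 and 55.6 TPM in (trans) Retinoic acid and 13.7, 36.5 and 75.0 TPM in Accutane or Isotretinoin, against day means of 2.44, 3.78 and 35.2 TPM in the non-toxic libraries. SV2B had 0.57, 8.13 and 20.7 TPM in (trans) Retinoic acid and 0.66, 7.07 and 20.3 TPM in Accutane or Isotretinoin, against 0.363, 0.533 and 5.97 TPM. Both genes were above the non-toxic range on 11 of 11 days in either compound, and on day 1 CPLX1 was already at 12.5 TPM in (trans) Retinoic acid and 13.7 TPM in Accutane or Isotretinoin, against 2.73 TPM.
The differences for CPLX1 were 1.98 ± 0.11 in (trans) Retinoic acid and 2.04 ± 0.11 in Accutane or Isotretinoin, and for SV2B 1.76 ± 0.08 in (trans) Retinoic acid and 1.77 ± 0.08 in Accutane or Isotretinoin (SE, limma, adjusted p of 2.9e-37, 4.2e-40, 6.8e-48 and 2e-47). These 2 genes also had the largest differences between day 39 and day 10 in the non-toxic cultures on the log2(TPM + 1) scale. VAMP1 was at 38.1, 64.2, 69.8 and 49.9 TPM on days 15, 21, 27 and 39 in (trans) Retinoic acid, against 10.1, 16.7, 12.3 and 10.6 TPM, and within the non-toxic range on days 1 to 8. SYT5 fell by 1.01 in (trans) Retinoic acid and by 0.87 in Accutane or Isotretinoin, NRXN3 by 0.82 and 0.52, and SYN3 by 0.90 and 0.51. In all, 9 genes were called higher and 12 lower in (trans) Retinoic acid, where 21.2% of all genes were called higher and 26.4% lower. In Accutane or Isotretinoin 10 were called higher and 7 lower, where 20.2% and 21% of all genes were. The lower count of Accutane or Isotretinoin is near that share and is no result about the list. With the length slope as a covariate, (trans) Retinoic acid had 17 higher and 10 lower, and without its libraries of days 15 and 21, whose slopes were -0.180 and -0.415, it had 10 higher and 15 lower.
Set against each other on 11 shared days, the only pair of compounds tested, (trans) Retinoic acid and Accutane or Isotretinoin differed at 1 of 34 genes, where 0.533% of all genes were called higher and 0.527% lower. SYT4 had a lowest, median and highest level of 9.37, 57.2 and 166.1 TPM in (trans) Retinoic acid and 10.6, 66.98 and 205.2 TPM in Accutane or Isotretinoin, and was lower in (trans) Retinoic acid on 11 of 11 days. The difference was -0.43 (95% interval -0.56 to -0.29, limma, adjusted p = 0.0073). The other 33 genes were not called, with differences between -0.39 and 0.10 and intervals that reached from -0.70 at the lowest to 0.28 at the highest, which does not show that the isomers act alike. The intervals for CPLX1 (-0.20 to 0.07) and SV2B (-0.21 to 0.18) were narrow beside the rises both isomers gave.

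By day, the median over toxic libraries was lowest on day 21, at -0.241. The list's median was below that of all non-toxic libraries in 14 of 19 toxic libraries on day 21, and above all of them in 1. On day 39 it was above all non-toxic libraries in 9 of 22 toxic libraries and below all in 6, with a range of -0.351 in Propylthiouracil to 0.401 in Hydroxyurea, against -0.116 to 0.135 in the non-toxic libraries. The median length slope of the toxic libraries was -0.322 on day 21 and -0.054 on day 39, so the day of the lowest median also had the strongest length trend. Low medians were not confined to that day. On day 3, 24 of 28 toxic libraries were below all non-toxic libraries and 3 above all of them. Their median was -0.193, at a median length slope of -0.031. On day 3, K252a was at -0.148, Bis-I at -0.247 and Vincristine at -0.251. 2-Imidazolidinethione, Bioallethrin, L-phenylalanine and Propylthiouracil, with 0 genes called over all days, were at -0.197, -0.208, -0.166 and -0.189. On day 6 these compounds with 0 calls were at 0.056, 0.031, 0.135 and 0.075. Whether differences of single compounds hold a shift shared by the toxic libraries of a day was not tested. The part of the length trend was not tested.

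An interaction test compared the difference from the non-toxic libraries on days 8 to 39 with that on days 1 to 6. It was run for every compound with at least 3 libraries on the later days, and 9 further ones are described here. Among those not described, Amiodarone had 0 genes higher and 9 lower, where 955 and 1953 of 16318 tested genes were. Dioxin had 2 higher and 7 lower, where 694 and 2022 tested genes were. In (trans) Retinoic acid 14 of 34 genes were higher and 7 lower on the later days, where 16.7% of all genes were higher and 18.8% lower. In Accutane or Isotretinoin 15 were higher and 5 lower, where 16.8% and 11.2% of all genes were. VAMP1 in (trans) Retinoic acid, within the non-toxic range to day 8 and above it after, was higher in this test (1.61 ± 0.19, SE, limma, adjusted p = 3e-13). Bis-I had 7 higher and 6 lower (7.76% and 13.5% of all genes), and PD166866 7 and 10 (12.4% and 25.2%). Hydroxyurea had 3 higher and 7 lower (10.6% and 11%), Lead acetate 1 and 2 (8.83% and 8.51%), and U0126 2 and 0 (4.82% and 3.51%). The counts of Lead acetate and U0126, the higher count of Hydroxyurea, and the lower counts of Bis-I, PD166866 and both retinoids are near or below these shares and are no result about the list. Ibuprofen had 0 higher and 22 lower (2.83% and 37.9%), and 0 and 0 without its day 8 library. Monosodium glutamate had 20 higher and 0 lower (38.7% and 2.62%), and 0 and 0 without its day 1 library. Both omissions were chosen after the data were seen.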

How the data were processed

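H1-NPC cultures were profiled by RNA sequencing of whole wells. CASAVA 1.8.2, Bowtie 0.12.8, RSEM 1.2.1 and the build hg19 are named in the submitters' processing notes. The authors deposited TPM per gene symbol, with library sums between 999999.07 and 1000001.05. They are not counts, so depth is unknown. Groups, days and doses come from the labels, and 0 libraries were identical.

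Genes reaching 1 TPM in 5 or more libraries (16318) entered limma 3.58.1 (R 4.3.3, trend on mean level) as log2(TPM + 1), and p-values were adjusted by Benjamini-Hochberg over all of them and called below 0.05. Time was fitted by day over the non-toxic libraries. A compound's days served as its replicates: its libraries were set against same-day non-toxic ones, adjusting for day, with a block for compound (correlation 0.0212). Classes used 1 value per compound with at least 3 libraries, and the retinoids a fit on shared days. The length slope used genes of at least 10 TPM and the longest coding transcript, for 93.0% of them. On simulated data, 88% of genes planted with a change of 0.5 log2 were recovered for Okadaic acid and 100% at 1 log2. For the retinoid pair these were 87% and 100%. Unplanted genes called were 8 for Okadaic acid and 12 for the pair. The simulation had independent noise at the non-toxic spread and the same change on all days. It therefore does not give the recovery in libraries with a length trend or with changes that grow over days. Figures were drawn with matplotlib in Python.

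The members and lists were chosen with earlier results of these data known. Genes were named by a rule: the 6 largest differences each way over time, exceptions to the list, and up to 4 called each way in the 8 compounds with the most calls. Other genes, including those of Bis-I, Lead acetate, Busulfan, PD166866, U0126 and the retinoids and the days quoted for SYN1 and RIMS1, were picked after their values were seen.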

Additional observations from a re-analysis of the deposited data

Results flagged for a closer look

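Among 51 groups of 4 to 10 libraries, in which chance marks about 1 in 20, a few libraries stood far from the rest. Ibuprofen on day 8 had a median over the 34 genes of -1.777, far below both its own other days and the other non-toxic libraries of day 8, which lay between -0.009 and 0.276. Its length slope was -0.728. Cadmium on day 6 had a median of -0.865, far below its other 4 days, and SYN1 in Cadmium differed least from the non-toxic mean on day 6, by 0.059. SV2B in Vincristine was 3.868 above the non-toxic mean on day 4, in the library with 17188 genes at 1 TPM or more.

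The difference from the non-toxic libraries was tested between days 8 to 39 and days 1 to 6, as an interaction in limma. It was run for every compound with at least 3 libraries on the later days, and 10 of these compounds are listed here. In K252a 22 of 34 genes were lower on the later days, where 9.25% of all genes were lower. In Ibuprofen 22 were lower, where 37.9% of all genes were, and 0 were without its day 8 library. In Monosodium glutamate 20 were higher, where 38.7% of all genes were, and 0 were without its day 1 library. In (trans) Retinoic acid 14 genes were higher and 7 lower, where 16.7% of all genes were higher and 18.8% lower. In Accutane or Isotretinoin 15 were higher and 5 lower (16.8% and 11.2% of all genes), in Bis-I 7 and 6 (7.76% and 13.5%), and in PD166866 7 and 10 (12.4% and 25.2%). In Hydroxyurea 3 were higher and 7 lower (10.6% and 11%), in Lead acetate 1 and 2 (8.83% and 8.51%), and in U0126 2 were higher (4.82%). The counts of Lead acetate and U0126, the higher count of Hydroxyurea, and the lower counts of Bis-I, PD166866 and both retinoids are near or below the shares of all genes and are no result about the list.

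Maneb, a toxic compound with a single library on day 1 that entered no comparison, had a median over the 34 genes of -1.92, where the 16 non-toxic libraries of day 1 lay between -0.049 and 0.029. Its length slope was -0.848.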

How the results depend on the processing

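Of 588 values of named genes under other settings, 577 kept direction and call, 11 lost the call and 0 reversed. Of 340 counts of the 34 genes, 284 stayed within 1.5 times the reported count, 25 were smaller and 31 larger. Shares of all genes called were not counted under these settings.

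The length slope moved most counts. With it as a covariate, Arsenic had 8 genes higher and 15 lower, Okadaic acid 5 higher, Vincristine 3 higher, Cadmium 6 lower, Hydroxyurea 2 higher, K252a 1 higher, AraC 2 lower, 5-Fluorouracil 2 lower, Bis-I 5 higher and 12 lower, Lead acetate 5 higher, (trans) Retinoic acid 17 higher, PD166866 1 lower, U0126 20 higher and 0 lower, Busulfan 19 higher and 4 lower, Ibuprofen 0 and 0, and the toxic class on days 8 to 39 1 higher and 0 lower. Without libraries of a slope below -0.15, Arsenic had 7 higher, Hydroxyurea 2, K252a 1, Bis-I 1, Busulfan 16, U0126 17 higher and 0 lower, PD166866 1 lower, Ibuprofen 0 and 0, and the late class comparison 3 lower. This setting was not run for Cadmium, since no library would remain.

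With each library centred on its median, Cadmium had 24 higher and 2 lower, Vincristine 3 higher, 5-Fluorouracil 5 lower, Bis-I 4 higher, U0126 14 higher and 0 lower, Ibuprofen 2 higher and 5 lower, and the late class comparison 1 higher. With a pseudocount of 0.1 TPM, Lead acetate had 1 higher and U0126 0 lower, and with no filter on low values Lead acetate had 1 higher. With Ibuprofen left out of the controls, Bis-I had 1 higher, Lead acetate 1 higher and U0126 3 lower. Leaving out each library in turn gave 2 to 5 lower in AraC, 1 to 3 higher in Vincristine and 9 to 16 higher in Busulfan, where day 6 in AraC, day 6 in Vincristine and day 3 in Busulfan were the libraries whose omission moved the count most.

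The late against early test, after its values were seen, was also run without 1 library. It then had 0 lower in Ibuprofen, without day 8, and 0 higher in Monosodium glutamate, without day 1.

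The labels carry no replicate numbers, so the block is the compound. With no replicate block, Hydroxyurea and Ibuprofen each had 2 higher, and with compound as a block in the time comparison the counts stayed at 32 and 0 for day 10 against day 1 and 20 and 6 for day 39 against day 10. The cause of these shifts was not tested. Read depth is unknown, so how precisely low genes such as SV2B were measured cannot be stated.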

Other observations

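Monosodium glutamate, classed as toxic, had 4 of the 34 genes called lower and 0 higher over 11 libraries, where 7.8% of all tested genes were called lower and 0.582% higher. Its day 1 library had a median over the 34 genes of -1.479, with 34 of 34 below all 16 non-toxic libraries, and a length slope of -0.829. Genes below those libraries were counted in the list only. On day 2 the median was 0.018 and the slope 0.036. On days 1 to 6 together 27 of 34 were called lower, where 8370 of 16318 tested genes were, and on days 8 to 39 0 were called in either direction. The difference between these periods was called higher for 20 of 34 genes and for 6313 of all tested genes, and for 0 of the 34 without the day 1 library.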
